A study of Homo sapiens with 6 samples.

Results

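The genes described here are those of fatty acid oxidation and of peroxisomes: a list of 39 enzymes, carriers and peroxins. They were chosen by name, but with earlier results of these data known. Of the 39, 36 were measured by a probe set annotated to that gene alone, out of 11963 genes measured in all, and each gene was read from its brightest such probe set. SCP2 and PEX13 were not analysed here, and CPT1B was covered only by probe sets shared with a readthrough transcript. The RNA is from human breast cancer lines, SUM44 and LCCTam, both labelled as invasive lobular and positive for the estrogen and progesterone receptors. SUM44 cells, labelled sensitive to tamoxifen, were given 500 nM 4-hydroxytamoxifen (4HT), the active form of the drug, for 24 hours, in 3 cultures. LCCTam, a resistant line selected from SUM44, was grown without 4HT for 14 days, also in 3 cultures. Line and drug differ together, so their effects cannot be told apart, and each group stands for 1 line. Values are log2 expression levels from Affymetrix arrays, differences are LCCTam minus SUM44, and a gene was called at an adjusted p under 0.05 in limma's moderated test over all genes (Benjamini-Hochberg adjustment, 3 arrays a group).

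Fatty acids are burned in mitochondria after the carnitine shuttle has carried them in as acyl-carnitines. There an acyl-CoA dehydrogenase, a hydratase, a second dehydrogenase and a thiolase shorten the chain round by round, and electrons from the first step pass through the electron transfer flavoprotein to its oxidoreductase and on to the respiratory chain. Peroxisomes shorten very long and branched chains and bile acid precursors with enzymes of their own, which are brought in through a pore built by peroxins. In breast epithelium this oxidation supplies energy beside glucose, and estrogen-related receptors and PPARs are known regulators of its genes.

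Of the 36 measured members, 6 rose in LCCTam (HADH, ECI1, ETFB, ACOX2, ECH1 and PEX14), 8 fell (CPT1A, ACADVL, ACADM, ACAA2, DECR1, ETFA, ETFDH and PEX11A) and 22 were not called. Called members made up 38.9%, against 15.8% of all genes. That is 16.7% higher and 22.2% lower, beside 9.18% higher and 6.6% lower over all genes tested. Calls were commoner among bright genes, and 27 of the 36 members were brighter on average than 7.11, the middle level of all genes. With only such bright genes tested, 44.4% of the 27 members were called, against 29.2% of genes. With only genes reaching log2 6 throughout at least 1 group, it was 40.6% of 32 members, against 22.2%. The excess of called members was smaller within these brighter sets. Levels of members and other genes were not matched inside them, and the part of brightness was not tested. The median difference of the members was -0.04, and over all genes it was 0.08. The groups did not overlap at 21 members, or 58.3%, against 35.4% of all genes. A difference of at least 1 on the log2 scale, in either direction, was seen at 7 members, or 19.4%, against 6.39% of all genes. An unadjusted p under 0.05 was given to 18 members in limma, against 31.4% of all genes. Each member was counted in 1 organelle only, by the role it was listed under. Among the 18 measured members counted as mitochondrial, 3 rose and 7 fell. The 18 counted as peroxisomal, with CROT, had 3 higher and 1 lower, and the contrast between the organelles was not tested.

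**Figure D1:**
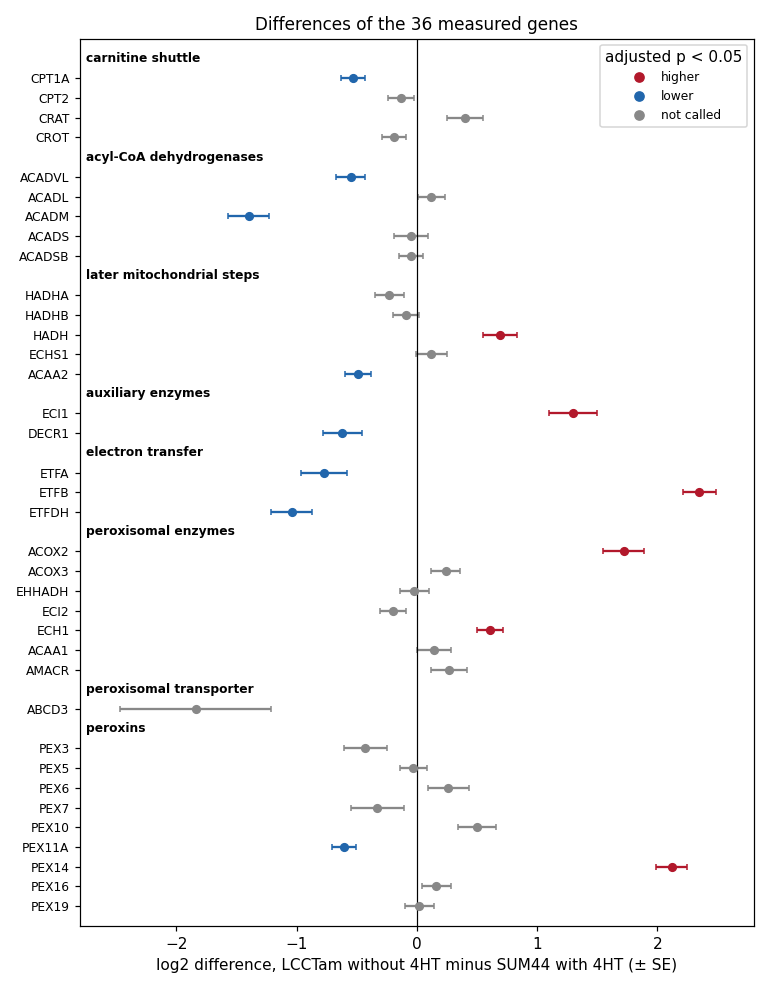
Log2 difference (LCCTam without 4HT minus SUM44 with 4HT) of each of the 36 measured genes on the horizontal axis, ordered by role; points are limma estimates, bars their SE, and colour marks genes called at an adjusted p under 0.05. ETFB and PEX14 lie farthest to the right at 2.35 and 2.12, while ABCD3 at -1.84 has the widest bar and was not called.

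The arrays were checked once before the members were read. Correlations over genes were 0.994 to 0.995 among SUM44 arrays and 0.958 to 0.987 among LCCTam arrays, lowest between LCCTam replicates 1 and 3. LCCTam replicate 1 correlated with SUM44 at 0.972 to 0.974, replicate 2 at 0.951 to 0.964 and replicate 3 at 0.923 to 0.941. The poly-A spike-in probe sets averaged 7.15, 7.05 and 6.70 in SUM44 replicates 1, 2 and 3 and 7.12, 7.46 and 7.74 in LCCTam. Keratins 8, 18 and 19, EPCAM, ESR1, GATA3 and FOXA1 were at 9.26 or more in every array. CDH1, a further luminal marker, was much lower, between 6.35 and 7.17 over the arrays, and was not called. Of 9 luminal markers, whose mean level was 10.25 to 10.41 in SUM44 and 9.97 to 10.11 in LCCTam, KRT8, KRT18, KRT19 and ESR1 fell, ESR1 by 1.40, and GATA3 rose by 1.11; their part in the members' results was not tested. PGR, the progesterone receptor of the label, was dim at 4.22 ± 0.11 (SD, n = 3) and 4.01 ± 0.15, below 5.93, the lower quartile of gene means. None of the 7 fibroblast, 5 immune, 5 endothelial and 6 adipocyte markers measured was called, and their mean levels spanned 5.55 to 6.33 over arrays and lists. No detection calls were used here, so signal under 5.93 could not be told from background.

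Of the 4 measured genes of the carnitine shuttle, CPT1A fell and the other 3 were not called. CPT1A, the outer-membrane carnitine palmitoyltransferase and rate-limiting step of entry, read 10.33, 10.39 and 10.56 in SUM44 and 9.87, 9.88 and 9.92 in LCCTam. The groups did not overlap, and the LCCTam cultures lay within 0.05 of each other at a fall of 0.53 on the log2 scale (SE 0.10, 1.45-fold, limma adjusted p = 0.0144). All 4 probe sets of CPT1A had negative differences, -0.31 to -0.67, and 3 of them were called. The LCCTam cultures were less close on the dimmer probe sets. Those read 6.95, 7.22 and 7.36, then 6.88, 6.89 and 7.07, then 7.19, 7.41 and 7.72 in replicates 1, 2 and 3. CPT2, which remakes acyl-CoA inside the mitochondrion, stood at 8.36 ± 0.08 (SD, n = 3) and 8.23 ± 0.13 and was not called (limma adjusted p = 0.455). CRAT, which moves acetyl groups on carnitine, read 8.09, 8.20 and 7.66 in SUM44 and 8.36, 8.32 and 8.48 in LCCTam. The CRAT groups did not overlap, but the difference of 0.40 ± 0.15 (SE) was not called, while a dimmer probe set of CRAT gave 0.56 and was called (limma adjusted p = 0.0398 among all probe sets). CROT, the peroxisomal octanoyltransferase, differed by -0.19 ± 0.10 (SE). The CPT1A call was lost without SUM44 replicate 2, SUM44 replicate 3 or LCCTam replicate 2 (limma adjusted p from 5.62e-05 to 0.0724 over all alternatives). The low end of each such range, here and below, came from the fit with array weights, which did not converge. That fit weighted LCCTam replicate 2 at 43.86 and replicates 1 and 3 at 0.1676 and 0.1678, so its small p-values are not reliable.

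The acyl-CoA dehydrogenases, which start each round on chains of a given length, split between 2 lower and 3 not called. The share called was 40.0%, against 15.8% of all genes. ACADM, the medium-chain enzyme, read 6.02, 5.50 and 5.79 in SUM44 and 4.59, 4.17 and 4.33 in LCCTam. Every LCCTam culture lay below every SUM44 culture, a fall of 1.40 (SE 0.17, 2.64-fold, limma adjusted p = 0.00217). Both ACADM means, 5.77 and 4.37, are below the lower quartile of gene means, so the fold is not exact. ACADVL, the very-long-chain enzyme of the inner membrane, read 9.97, 9.80 and 10.01 against 9.29, 9.31 and 9.54, again without overlap. It fell by 0.55 (SE 0.12, 1.47-fold, limma adjusted p = 0.0198). The other 3 had values within 0.12 of no difference: ACADS, the short-chain enzyme, at 7.92 ± 0.05 (SD, n = 3) and 7.87 ± 0.24, and ACADSB and ACADL at dim signals with differences of -0.05 and 0.12. ACADM kept its call in all 6 fits that left out an array, whereas ACADVL lost it without SUM44 replicates 1 or 3 or LCCTam replicate 2 (limma adjusted p from 3.22e-05 to 0.0946 over all alternatives).

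Steps after the first dehydrogenation moved apart. HADH, the hydroxyacyl-CoA dehydrogenase of medium and short chains, read 8.66, 8.57 and 8.19 in SUM44 and 9.13, 9.22 and 9.14 in LCCTam. The groups did not overlap and the spread lay mostly in SUM44 replicate 3, which was the lowest. HADH rose by 0.69 ± 0.14 (SE, 1.62-fold, limma adjusted p = 0.0167), and its other probe sets gave 0.72 and 0.61, both called. ACAA2, the thiolase that ends the round, went the other way, from 9.55, 9.61 and 9.71 to 9.03, 9.29 and 9.08. Its fall of 0.49 (SE 0.11, 1.4-fold, limma adjusted p = 0.0269) was not seen by a dimmer probe set of ACAA2, which differed by 0.16 and was not called. The subunits of the trifunctional protein, which joins these steps for long chains, were not called: HADHA stood at 11.29 ± 0.04 (SD, n = 3) and 11.06 ± 0.18, and HADHB at 11.70 ± 0.07 and 11.61 ± 0.14. HADHA and HADHB neighbour each other head to head on chromosome 2. ECHS1, the short-chain hydratase, differed by 0.12 ± 0.13 (SE). The HADH call was lost without SUM44 replicates 2 or 3 or LCCTam replicate 2 (limma adjusted p from 7.11e-05 to 0.0798 over all alternatives). The ACAA2 call was lost without any 1 SUM44 replicate and with the mean of its probe sets, at -0.16 (limma adjusted p from 0.00143 to 0.292).

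Both auxiliary enzymes for unsaturated chains were called, in opposite directions. ECI1, the mitochondrial isomerase that moves a double bond into place, read 8.78, 8.65 and 8.61 in SUM44 and 9.68, 9.78 and 10.47 in LCCTam. LCCTam replicate 3 was the highest and no LCCTam culture came near SUM44, for a rise of 1.30 ± 0.20 (SE, 2.46-fold, limma adjusted p = 0.00658). DECR1, the dienoyl-CoA reductase for polyunsaturated chains, read 9.73, 9.68 and 9.79 against 9.35, 9.20 and 8.77. It fell by 0.62 (SE 0.16, 1.54-fold, limma adjusted p = 0.036), least in LCCTam replicate 1 and most in replicate 3. ECI1 was called whichever array was left out. DECR1 was not called without any 1 SUM44 replicate or LCCTam replicate 2 (limma adjusted p from 9.89e-05 to 0.134 over all alternatives).

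The carriers of electrons from the dehydrogenases showed the widest split. ETFB, the beta subunit of the electron transfer flavoprotein, read 6.96, 7.20 and 7.22 in SUM44 and 9.26, 9.52 and 9.66 in LCCTam. All LCCTam cultures stood more than 2 log2 units above all SUM44 cultures, a rise of 2.35 ± 0.14 (SE, 5.1-fold, limma adjusted p = 9.84e-05). ETFA, the alpha subunit that pairs with it, read 11.34, 11.25 and 11.43 against 10.90, 10.65 and 10.15. ETFA fell by 0.77 (SE 0.19, 1.71-fold, limma adjusted p = 0.0325), and LCCTam replicate 3 was the lowest. ETFDH, the oxidoreductase of the inner membrane that takes electrons from the flavoprotein, read 6.82, 6.42 and 6.67 against 5.91, 5.47 and 5.41. It fell by 1.04 (SE 0.17, 2.06-fold, limma adjusted p = 0.00721), and its other probe set gave -1.02, also called. All 3 LCCTam values of ETFDH are below 5.93, so neither its fold nor a contrast with it is exact. Within an array, the log2 value of ETFB minus that of ETFA rose by 3.12 from SUM44 to LCCTam, and that of ETFB minus ETFDH by 3.40. Neither contrast overlapped between groups, and an exact two-sided permutation test gave p = 0.1 for each, the smallest that 3 against 3 arrays allow. With ETFB higher in every LCCTam array and ETFA and ETFDH lower, the test could give no other value. It adds nothing to the calls of the single genes. Both contrasts were chosen after the values were seen. ETFB and ETFDH were called in all 6 fits without an array, while ETFA lost its call without any 1 SUM44 replicate or LCCTam replicate 2 (limma adjusted p from 4.34e-05 to 0.127 over all alternatives).

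**Figure D2:**
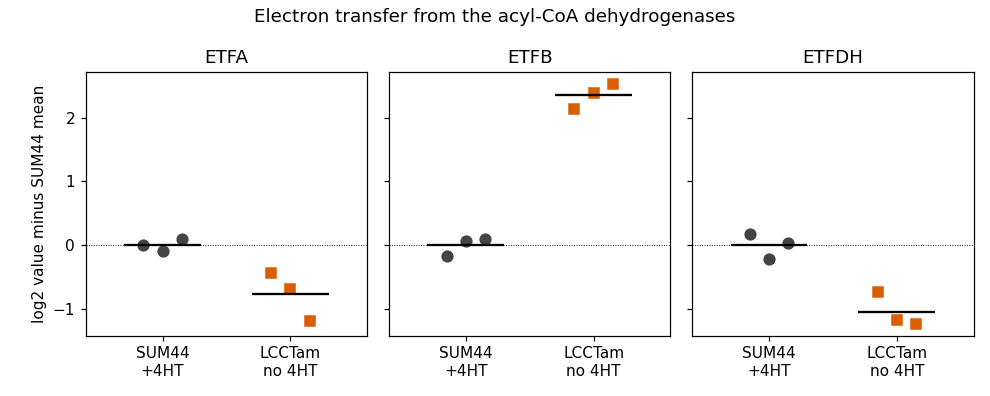
Log2 value of each array minus the SUM44 mean for ETFA, ETFB and ETFDH; circles are the 3 SUM44 arrays, squares the 3 LCCTam arrays (replicates 1 to 3 from left to right), and lines are group means. ETFB lies 2.13 to 2.53 above the SUM44 mean in LCCTam, while ETFA lies 0.44 to 1.19 and ETFDH 0.73 to 1.23 below it.

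Promoters are shown for the flavoprotein subunits, since partners in 1 protein moved apart, and for ACADM and ECI1, the largest fall and rise among the other mitochondrial members. The windows are the 250 bases before a RefSeq start site, 5′ to 3′ on the gene's strand in GRCh38.p14, with capitals for the GC box GGGCGG or its complement CCGCCC. The ETFA window lies at chr15:76311470-76311719, minus strand. ETFB has a pair of start sites, the first at chr19:51366389-51366638, minus strand and the second inside the gene at chr19:51354843-51355092, minus strand. That of ECI1 lies at chr16:2251588-2251837, minus strand, and that of ACADM at chr1:75724459-75724708, plus strand.
ETFA: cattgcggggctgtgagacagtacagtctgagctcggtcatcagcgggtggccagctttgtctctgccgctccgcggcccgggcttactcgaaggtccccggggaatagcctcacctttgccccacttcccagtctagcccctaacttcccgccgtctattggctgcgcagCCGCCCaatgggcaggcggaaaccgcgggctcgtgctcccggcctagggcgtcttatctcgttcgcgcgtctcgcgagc
ETFB, first start site: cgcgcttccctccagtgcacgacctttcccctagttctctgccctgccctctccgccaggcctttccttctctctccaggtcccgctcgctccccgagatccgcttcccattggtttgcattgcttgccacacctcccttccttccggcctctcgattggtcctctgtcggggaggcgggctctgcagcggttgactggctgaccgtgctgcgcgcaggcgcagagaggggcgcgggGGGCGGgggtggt
ETFB, second start site: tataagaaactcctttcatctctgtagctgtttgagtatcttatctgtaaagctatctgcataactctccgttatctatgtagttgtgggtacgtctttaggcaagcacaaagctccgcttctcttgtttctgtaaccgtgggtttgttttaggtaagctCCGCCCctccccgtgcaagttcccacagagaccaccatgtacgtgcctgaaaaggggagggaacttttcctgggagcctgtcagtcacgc
ECI1: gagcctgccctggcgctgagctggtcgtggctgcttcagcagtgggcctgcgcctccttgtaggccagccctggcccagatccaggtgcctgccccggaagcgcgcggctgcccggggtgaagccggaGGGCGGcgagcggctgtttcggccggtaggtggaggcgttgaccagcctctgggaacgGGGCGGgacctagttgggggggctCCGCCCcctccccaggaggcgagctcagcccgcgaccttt
ACADM: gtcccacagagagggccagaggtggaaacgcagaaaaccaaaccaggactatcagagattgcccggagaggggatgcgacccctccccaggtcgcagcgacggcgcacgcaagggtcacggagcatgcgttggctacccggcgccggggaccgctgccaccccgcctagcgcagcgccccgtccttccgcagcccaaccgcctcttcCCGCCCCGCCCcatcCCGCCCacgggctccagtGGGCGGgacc
The ETFA window holds 1 GC box and each ETFB window 1, while ECI1 has 3 and ACADM 4, with a shared base between the first and second of ACADM. The G and C share was 65.6% for ETFA, 67.2% for the first ETFB start site and 47.6% for the second, 72.8% for ECI1 and 70.8% for ACADM. Over windows from 250 bases before to 50 after a start site, the GC box was found on either strand in 30 of 41 member windows (73.2%) and in 45% of all 35116 windows. Those 41 windows cover 30 of the 39 members. AAGGTCA, the half-site of the estrogen-related receptors, matched 0 of the 41 and 3.92% of all windows. The direct repeat of AGGTCA with a spacing of 1 base (DR1), which PPAR binds with RXR, matched 0 of the 41 and 0.0228% of all. These are letter matches in short windows and say nothing of binding.

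Of the 7 peroxisomal enzymes measured, ACOX2 and ECH1 rose and the other 5 were not called, or 28.6% called against 15.8% of all genes. ACOX2, the oxidase of branched chains and bile acid precursors, read 6.44, 6.12 and 6.24 in SUM44 and 7.64, 8.07 and 8.24 in LCCTam. The groups lay more than 1 log2 unit apart, a rise of 1.72 ± 0.17 (SE, 3.29-fold, limma adjusted p = 0.00102) that was called in every fit without an array. ECH1, a dienoyl-CoA isomerase, read 10.33, 10.29 and 10.22 against 10.77, 10.86 and 11.06. ECH1 rose by 0.61 ± 0.11 (SE, 1.53-fold, limma adjusted p = 0.0113), a call lost without SUM44 replicates 2 or 3 or LCCTam replicate 2 (limma adjusted p from 2.44e-05 to 0.0635 over all alternatives). ACOX3, a further branched-chain oxidase, differed by 0.24 ± 0.12 (SE), ACAA1, the peroxisomal thiolase, by 0.14 ± 0.14, and ECI2, an isomerase, by -0.20 ± 0.11, and none was called. EHHADH, the bifunctional enzyme of the classical peroxisomal route, was dim at 3.98 ± 0.13 (SD, n = 3) and 3.96 ± 0.14.

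AMACR, the racemase that readies branched chains for oxidation, depended on which probe set was read. Its brightest probe set annotated to AMACR alone read 6.12, 6.23 and 6.11 in SUM44 and 6.21, 6.32 and 6.74 in LCCTam, overlapping, with a difference of 0.27 ± 0.15 (SE) that was not called. A further 3 probe sets are annotated to AMACR together with the readthrough transcript C1QTNF3-AMACR, and the brightest of these read 7.66, 7.45 and 7.57 against 6.76, 6.80 and 6.81. All 3 were called lower, with differences of -0.75, -0.79 and -0.77 and no overlap (limma adjusted p = 0.0166, 0.0109 and 0.0031 among all probe sets). In LCCTam the means of 2 of the 3 are below 5.93. The direction of AMACR is not settled by these arrays.

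ABCD3, the peroxisomal membrane carrier for branched and long acyl-CoA, had the largest fall of the members and the widest spread. It read 11.28, 10.91 and 11.43 in SUM44 and 10.88, 9.26 and 7.96 in LCCTam replicates 1, 2 and 3. LCCTam replicate 1 lay only just below the lowest SUM44 array and replicate 3 far below, and the groups did not overlap. The difference of -1.84 ± 0.63 (SE, 3.58-fold) was not called (limma adjusted p = 0.0935), and only 2 of the 11963 genes had a larger SD among LCCTam arrays than its 1.46. With array weights it was called, and without LCCTam replicate 1 it was -2.60 and called (limma adjusted p = 0.000464, range 3.1e-05 to 0.251 over all alternatives). Without LCCTam replicate 3 it was -1.14 and not called. The 3′ minus 5′ control value of ACTB was -0.11, -0.05 and -0.11 in SUM44 and 0.08, -0.05 and 0.21 in LCCTam replicates 1, 2 and 3. That of GAPDH was -0.06, 0.00 and 0.20 in SUM44 and 0.00, 0.11 and 0.01 in LCCTam, and the part of these controls and of the spike-in levels above was not tested. HSD17B4, a bifunctional enzyme of the branched-chain route outside the member list, read 9.54, 8.92 and 7.98 in the same LCCTam arrays against 9.59 to 9.80 in SUM44. It was not called with all arrays (limma adjusted p = 0.121, range 0.000229 to 0.294 over all alternatives), only without LCCTam replicate 1 and with array weights.

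**Figure D3:**
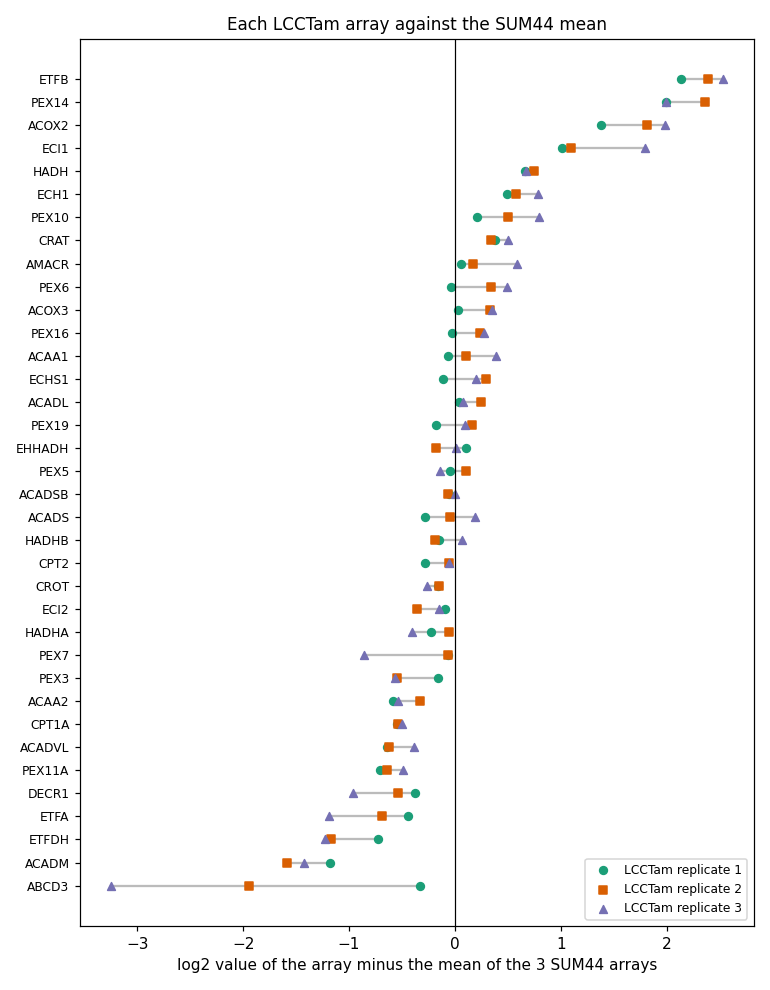
Log2 value of each LCCTam array minus the mean of the 3 SUM44 arrays, for the 36 measured genes ordered by their mean difference; symbols mark replicates 1, 2 and 3 and grey bars join the lowest and highest. ABCD3 spans -0.33 to -3.25, whereas CPT1A spans only -0.55 to -0.50.

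Peroxins, which build peroxisomes and import their enzymes, were called in 2 of 9 cases, or 22.2%, against 15.8% of all genes. PEX14, the docking protein of the import pore, read 8.24, 8.25 and 8.17 in SUM44 and 10.21, 10.58 and 10.21 in LCCTam. The rise was 2.12 ± 0.13 (SE, 4.33-fold, limma adjusted p = 0.000104), or 1.99, 2.36 and 1.99 above the SUM44 mean in LCCTam replicates 1, 2 and 3. A dimmer PEX14 probe set gave 2.22 and was called, but was highest in replicate 3, at 9.80, 9.88 and 10.51. PEX11A, which acts in elongation and division of peroxisomes, read 7.90, 7.80 and 7.87 against 7.15, 7.22 and 7.37. It fell by 0.61 (SE 0.10, 1.53-fold, limma adjusted p = 0.00875), and a dimmer probe set of PEX11A fell by 0.73. The receptors that bring cargo to the pore were not called, PEX5 at 8.35 ± 0.11 (SD, n = 3) and 8.32 ± 0.12 and PEX7 at 8.89 ± 0.08 and 8.55 ± 0.46. PEX7 was near SUM44 in LCCTam replicates 1 and 2, at 8.82 in both, and low in replicate 3 at 8.03.

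Of the peroxins of membrane assembly, PEX3 differed by -0.43 ± 0.18 (SE), PEX16 by 0.16 ± 0.12 and PEX19 by 0.02 ± 0.12, none of them called. PEX3 overlapped between groups and was called with array weights, without LCCTam replicate 1 and with the replicate number as a block (limma adjusted p = 0.00113, 0.0257 and 0.0411, range 0.00113 to 0.42). PEX10, a ubiquitin ligase that recycles the receptor, read 7.90, 8.08 and 7.98 in SUM44 and 8.19, 8.48 and 8.77 in LCCTam. Its groups did not overlap, and the difference of 0.50 ± 0.16 (SE) was called only without LCCTam replicate 1 (limma adjusted p = 0.00513) and with array weights, in a range of 0.000185 to 0.235. PEX6, an ATPase of the same recycling step, differed by 0.26 ± 0.17 (SE). PEX14 was called in all 6 fits without an array, and PEX11A in 3, not without SUM44 replicates 1 or 3 or LCCTam replicate 2 (limma adjusted p from 1.25e-05 to 0.0514 over all alternatives).

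**Figure D4:**
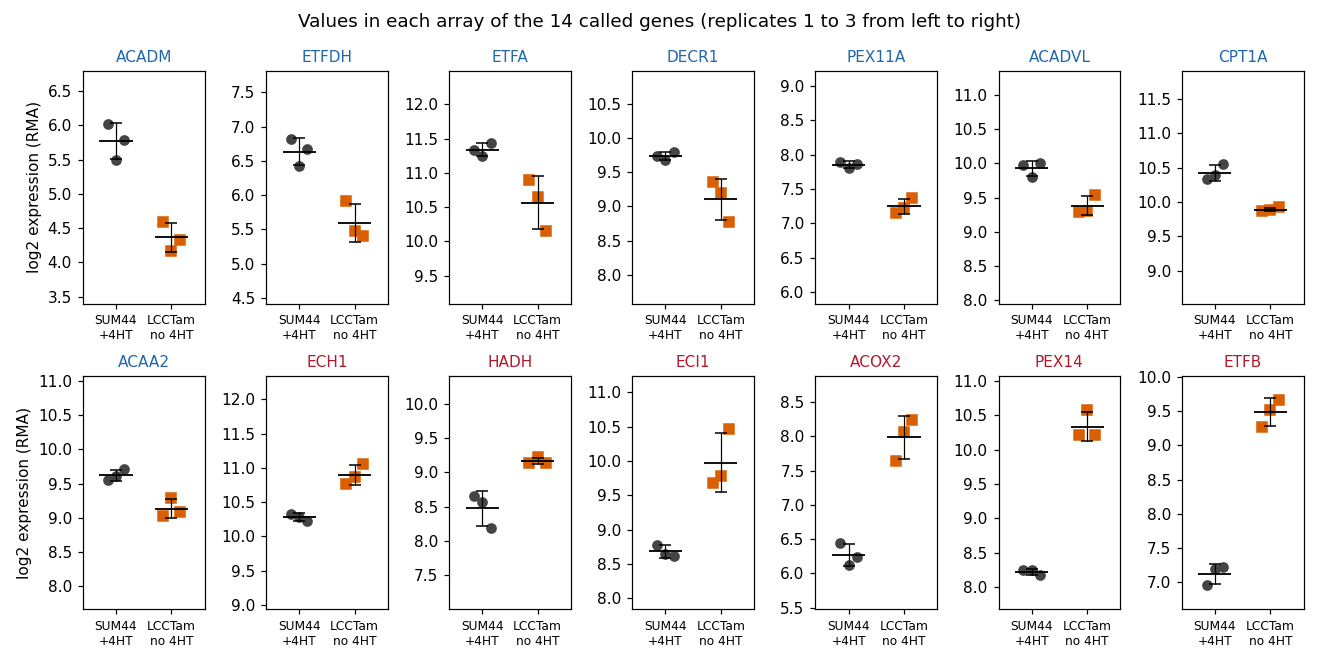
Log2 expression in each array of the 14 called genes, ordered from the largest fall to the largest rise; circles are SUM44 and squares LCCTam (replicates 1 to 3 from left to right), long lines are means, capped bars SDs, and every panel spans the same number of log2 units. In each panel the groups do not overlap, and blue titles mark the 8 that fell and red titles the 6 that rose.

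Spread within LCCTam and the effect of leaving out each array were read for the members beside all genes. Whether that spread changed the calls was not tested. Of the 36 members, 29 had a larger SD in LCCTam than in SUM44 (80.6%, against 75.4% of all genes), and 9 of the 14 called members were closest to SUM44 in LCCTam replicate 1 (64.3%, against 66.3% of all called genes). Without SUM44 replicates 1, 2 and 3 in turn, 9, 8 and 6 of the 14 calls were kept, where 6.73%, 7.22% and 6.28% of all genes were called. Without LCCTam replicates 1, 2 and 3, 14, 7 and 14 were kept, beside 35.5%, 6.33% and 14.8% of all genes. Leaving out LCCTam replicate 1 added ACOX3 and PEX6 (higher), PEX10 (higher), ABCD3 and PEX3 (lower), for 19 called members. The 6 calls kept throughout were ACADM, ETFDH, ECI1, ETFB, ACOX2 and PEX14. Over 20 members with more than 1 probe set, 22 of 26 further probe sets had the sign of the one used.

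Genes beside the 7 members with the largest differences were read with all arrays, 5 measured neighbours on each side. None of the 10 around ETFB on chromosome 19 was called, with differences of -0.23 to 0.29, and none of the 10 around ACOX2 on chromosome 3, at -0.83 to 0.25. Around PEX14 on chromosome 1, SRM rose by 1.07 and KIF1B fell by 0.88, and the median was 0.06. Around ECI1 on chromosome 16 all 10 differences were positive, 0.11 to 0.58, and RNPS1 and ABCA3 were called. ACADM, also on chromosome 1, fell among neighbours of which CTH rose by 0.98 and ANKRD13C-DT by 0.77. Its 10 neighbours ran from -1.17 (CRYZ) to 0.98 with a median of 0.05, and none was called lower. Near ETFDH on chromosome 4, NPY1R fell by 1.21, RAPGEF2 fell by 0.49 and PDGFC rose by 0.92. The 10 neighbours of ABCD3 on chromosome 1 ran from -2.32 (CNN3) to 1.11 (BCAR3) with a median of -0.65, beside 0.08 over all genes. Of these, 3 were called lower (CNN3, PTBP2 and GCLM) and 1 higher (BCAR3). DNTTIP2 at -1.66, ARHGAP29 at -1.12 and RWDD3 at -0.78 were not called, nor was ABCA4 at 0.11. Whether the fall of ABCD3 went with that of its neighbours was not tested.

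Other genes of these pathways were read from lists chosen by function. Of 86 measured genes of import, mitochondrial and peroxisomal oxidation and their regulators, 7 were higher, 8 lower and 71 not called, or 17.4% against 15.8% of all genes. None of the 17 of fatty acid uptake and activation was called in limma, where 6 had an unadjusted p under 0.05, beside 31.4% of all genes. Among 17 further mitochondrial enzymes 3 were higher and 3 lower, or 35.3%. ECHDC3, of the enoyl-CoA hydratase family, fell by 1.37 (SE 0.14), and OXCT1, which activates ketone bodies for burning, read 8.21, 7.65 and 6.85 in LCCTam against 9.23 to 9.44 in SUM44 and fell by 1.75 (SE 0.30). ACOT13, an acyl-CoA thioesterase, rose by 0.80 ± 0.11 (SE) and IVD, the isovaleryl-CoA dehydrogenase that also feeds the electron transfer flavoprotein, by 0.53 ± 0.10. ECHDC1, an ethylmalonyl-CoA decarboxylase, rose by 0.67 ± 0.15 (SE) at a dim signal, and MMUT, the methylmalonyl-CoA mutase, fell by 1.06 (SE 0.29). ECHDC3, OXCT1 and ACOT13 were called whichever array was left out. IVD was not called when its probe sets were averaged, at 0.29, nor in the fits lacking SUM44 replicate 1, SUM44 replicate 2 or LCCTam replicate 2. ECHDC1, at 0.44 with array weights, lost its call without any 1 SUM44 replicate and with cyclic loess, and MMUT kept its call in 1 of the 6 fits, that without LCCTam replicate 1 (highest limma adjusted p = 0.0796 for IVD, 0.0964 for ECHDC1 and 0.171 for MMUT over all alternatives). MMUT also lost it with median centring, cyclic loess and an intensity trend.

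Of 27 further peroxisomal genes, 1 rose and 3 fell, or 14.8% called, near the 15.8% of all genes. PHYH, which starts the oxidation of phytanic acid, read 10.16, 10.24 and 10.05 in SUM44 and 8.47, 8.69 and 8.20 in LCCTam. It fell by 1.69 (SE 0.14, 3.24-fold, limma adjusted p = 0.000461) with wide separation, and kept its call whichever array was left out. LONP2, a peroxisomal protease, fell by 0.76 and IDH1, which makes NADPH there and in the cytosol, by 0.84, while PEX26, the anchor of PEX6 on the membrane, rose by 0.46. These 3 were not called without any 1 SUM44 replicate or LCCTam replicate 2 (highest limma adjusted p = 0.113, 0.113 and 0.095 over all alternatives). CAT, the catalase that removes the peroxide the oxidases make, differed by -0.45 ± 0.15 (SE) and was not called (limma adjusted p = 0.0906). CAT was called with its widest-ranging probe set, with array weights and without LCCTam replicate 1 (limma adjusted p = 0.0146, range 0.00106 to 0.279).

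Among 25 measured regulators, 3 were higher and 2 lower, or 20.0% called against 15.8% of all genes. PPARA, the receptor that induces these enzymes in liver, was dim at 4.50 ± 0.12 (SD, n = 3) and 4.63 ± 0.21, and PPARGC1A, a coactivator of mitochondrial genes, at 4.99 ± 0.07 and 4.66 ± 0.27. Neither was called in any fit but that with array weights (limma adjusted p from 0.0324 to 0.907 and from 0.0191 to 0.421). ESRRA, the estrogen-related receptor alpha, read 8.13, 8.29 and 8.35 in SUM44 and 8.43, 8.55 and 9.10 in LCCTam, a difference of 0.43 ± 0.18 (SE) that was called only without LCCTam replicate 1 and with array weights (limma adjusted p from 0.00991 to 0.394 over all alternatives). RXRB, a partner of the PPARs, rose by 0.51 ± 0.10 (SE) and PPRC1, related to PPARGC1A, by 0.50 ± 0.11. ESRRG, estrogen-related receptor gamma, rose as well, by 1.02 ± 0.23 (SE), from a dim 5.26 ± 0.10 (SD, n = 3) in SUM44. Its difference was 1.61 with the mean of its probe sets and 2.21 with the widest-ranging one. MGLL, the monoglyceride lipase, fell by 0.67, and PRKAA1, a catalytic subunit of AMP-activated kinase, by 0.62 at a dim signal. RXRB, PPRC1, MGLL and ESRRG were called in 2 of the 6 fits without an array, not without any 1 SUM44 replicate or LCCTam replicate 2 (highest limma adjusted p = 0.0853, 0.113, 0.0879 and 0.0984 over all alternatives). ESRRG was not called with cyclic loess either, and the mean of its probe sets left PRKAA1 uncalled at -0.29 (limma adjusted p = 0.0614).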

How the data were processed

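RNA of 6 cultures was measured on 6 arrays, 3 a group, grouped by the sample titles. The authors deposited log2 expression values made with RMA, as stated in the design text of the series. RMA by its usual definition corrects background, quantile-normalises and summarises probes. The version of RMA is not given in the sources used here. Such normalisation hides a change in total RNA per cell. Values ran from 3.16 to 14.6. Depth does not apply to arrays, and 3 arrays a group limit the precision. The titles call the arrays biological replicates, with no more said of the cultures, so p-values measure the spread between these samples.

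Of 22283 probe sets, 68 controls were left out, 19065 had 1 gene and 1043 several, which named no gene. Symbols were updated by gene ID through RefSeq (GRCh38.p14), which also gave the order of genes and the promoter windows. Each gene was its probe set with the highest mean (11963 genes). The groups were compared, two-sided, by lmFit with eBayes (limma 3.58.1, R 4.3.3), with 4 residual and 3.51 prior degrees of freedom. Further probe sets have p-values adjusted over every probe set that is no control. Tested on simulated data of 11963 genes with 200 changed, limma recovered 31% of those set at 1.5-fold, 73.3% at 2-fold and 94.8% at 4-fold. Of its calls, 4.97% were false. The simulated noise was normal, independent between arrays and equally wide in both groups. In these data 75.4% of genes had a larger SD in LCCTam, so the simulated rates may not hold for them.

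All members could be named, in full where called or at a difference of at least 1 on the log2 scale; of other lists the 4 called genes with the smallest p in each and PPARA, PPARGC1A, ESRRA, ESRRG, CAT and FASN. HSD17B4, PPRC1, ECHDC1, MMUT and the neighbouring genes were named after their values were seen, and the GC box was added likewise. The members and lists were chosen with earlier results of these data known. Marker lists covered luminal epithelium, fibroblasts, immune cells, endothelium and adipocytes. Protein features planned for the members were not analysed here. Alternatives changed 1 choice at a time: a different rule for picking probe sets (their mean, or the widest interquartile range), an intensity trend with robust fitting, weights on arrays, cyclic loess, median centring, 2 filters on dim genes, leaving out each array, blocking on the replicate number and an adjusted p under 0.01.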

Additional observations from a re-analysis of the deposited data

How the results depend on the processing

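The count of members higher (6) was 15, and of members lower (8) was 13, with array weights, which did not converge and called 58.7% of all genes. At an adjusted p under 0.01, 3 members were lower and ETFB, PEX14, ACOX2 and ECI1 were higher, where 6.04% of all genes were called. Leaving out 1 array gave 4 to 9 higher and 2 to 10 lower, and a median of -0.05 to -0.03. Under the other alternatives both counts stayed within 1.5 times, and over all alternatives the median ran from -0.10 to -0.02. An adjusted p under 0.01 gives no median. The signs that turned belonged to uncalled genes: PEX5 with probe set means (0.05) and array weights (0.10), CPT2 (0.11) and PEX19 (-0.03) with the widest-ranging probe set, and PEX19 with probe set means (0.00) and cyclic loess (-0.05). Leaving out 1 array moved PEX5 from -0.10 to 0.02, PEX19 from -0.05 to 0.12, ACADSB from -0.07 to 0.00, EHHADH from -0.10 to 0.05, ACADS from -0.16 to 0.07 and FASN from -0.40 to 0.10. With the replicate block 6 members were higher and 9 lower, with PEX3 added; deviations of same-numbered samples correlated at 0.49, 0.349 and -0.054, so the numbers were not taken as pairs, and not every sample correlated best with its own number. Cyclic loess moved the median of all genes by -0.076. Signal near background limits ACADM, ACADL, ACADSB, EHHADH and, in LCCTam, ETFDH.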

Other observations

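Fatty acid synthesis, which opposes oxidation, was read from a list of 14 genes, 10 of them measured, with 1 higher, 2 lower and 7 not called (30.0% called, against 15.8% of all genes). ELOVL5, an elongase of polyunsaturated chains, read 11.09, 11.18 and 11.12 in SUM44 and 10.54, 10.11 and 9.63 in LCCTam, a fall of 1.03 (SE 0.21, limma adjusted p = 0.0175). With the mean of its probe sets ELOVL5 differed by -0.36, still called. SCD, the desaturase that makes monounsaturated chains, fell by 0.75 (SE 0.18, limma adjusted p = 0.0306), or by 0.44 with array weights. MID1IP1, an activator of acetyl-CoA carboxylase, rose by 0.79 ± 0.13 (SE, limma adjusted p = 0.00827) and was called whichever array was left out. FASN, the synthase itself, differed by -0.20 ± 0.25 (SE), with SUM44 replicate 3 at 11.85 far above the other SUM44 arrays at 11.05 and 10.84. ELOVL5 and SCD were not called without any 1 SUM44 replicate, nor ELOVL5 without LCCTam replicate 2 (highest limma adjusted p = 0.0732 and 0.126 over all alternatives).

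CPT1B, the muscle form of the outer-membrane palmitoyltransferase, was covered by a pair of probe sets shared with the readthrough transcript CHKB-CPT1B. They differed by 0.18 ± 0.11 (SE) and 0.27 ± 0.11, at levels between 6.07 and 6.72, and neither was called (limma adjusted p = 0.336 and 0.148 among all probe sets), where CPT1A was called lower.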
